A study of Mus musculus with 8 samples.

Results

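The genes described here are 5 tyrosine kinases of the Src family (Fgr, Lyn, Src, Fyn and Yes1), Csk, the kinase that restrains them, and 3 enzymes that act after them in immune cells (Syk, Btk and Plcg2). They were chosen by gene symbol, and these 9 genes were found among the 21859 genes counted in the aortas of 4 ApoE-/- mice and 4 wild-type (WT) mice. All mice were males of the C57BL/6 background, were 40 weeks old and ate a chow diet. ApoE-/- mice carry a germline knockout of Apoe, the gene of apolipoprotein E, in every cell, and WT mice carry no engineered allele. Each mouse gave 1 library of total RNA from the whole aorta, so that every cell type of the vessel and of its surroundings was pooled in a library.

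Src family kinases sit at the inner face of the plasma membrane and phosphorylate tyrosines of receptors and adhesion proteins. Csk phosphorylates a tyrosine near their carboxyl end, which folds the kinase into its closed, inactive form. In leukocytes the family also phosphorylates paired tyrosines of receptor chains, called immunoreceptor tyrosine-based activation motifs (ITAMs), to which Syk docks, and Syk with Btk then activates phospholipase C gamma 2, the product of Plcg2. Fgr is used mainly by monocytes, macrophages and neutrophils, Lyn, Syk, Btk and Plcg2 by B cells and myeloid cells, although Lyn and Syk are also made elsewhere, and Src, Fyn, Yes1 and Csk by most cells. The first 5 are called haematopoietic members here and the other 4 widely expressed members.

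The end of each coding sequence is shown because it holds the codon for the last tyrosine of the protein, and because it shows how far near relatives differ in the letters from which read pairs were assigned to genes. Capitals mark the last in-frame tyrosine codon of the final 39 bases of each transcript in GENCODE M21.
Fgr coding end: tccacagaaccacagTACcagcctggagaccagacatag
Lyn coding end: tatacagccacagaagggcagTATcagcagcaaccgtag
Src coding end: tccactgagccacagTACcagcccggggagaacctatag
Fyn coding end: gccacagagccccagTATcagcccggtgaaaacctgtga
Yes1 coding end: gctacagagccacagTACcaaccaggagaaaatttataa
In Fgr, Src, Fyn and Yes1, 6 codons lay between the tyrosine codon and the stop codon, and in Lyn 4 did. The longest stretch of identical bases shared by any of the 28 pairs among these 5 kinases and Lck, Blk and Frk was 23 bases long, in the pairs Fgr and Src, Lyn and Lck, and Src and Blk, which is shorter than the 50-base reads.

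The genes lay at separate loci of the mouse genome GRCm38. Fgr occupied chr4:132974095-133001910 and Lyn chr4:3678115-3813122, both on the plus strand. Src was at chr2:157418444-157471862, Fyn at chr10:39368855-39565381 and Yes1 at chr5:32611171-32687057, all on the plus strand. Csk was at chr9:57626646-57653631 on the minus strand, Syk at chr13:52583173-52648792 and Plcg2 at chr8:117498291-117635142 on the plus strand, and Btk at chrX:134542336-134583570 on the minus strand. Exons of Lyn and of Yes1 overlapped those of 1 annotated gene each on the opposite strand (Gm26857 and Gm10461), neither of which was counted, and the libraries were stranded. The names of the deposited tables mark their counts as unique and stranded.

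Start regions are shown for the 2 members with the largest difference between genotypes, Fgr and Btk, and for 2 widely expressed members of the Src family. Each runs from 250 bases before to 50 bases after a RefSeq start site in GRCm38.p6, and CG pairs are in capitals.
Fgr promoter, chr4:132973845-132974144, plus strand: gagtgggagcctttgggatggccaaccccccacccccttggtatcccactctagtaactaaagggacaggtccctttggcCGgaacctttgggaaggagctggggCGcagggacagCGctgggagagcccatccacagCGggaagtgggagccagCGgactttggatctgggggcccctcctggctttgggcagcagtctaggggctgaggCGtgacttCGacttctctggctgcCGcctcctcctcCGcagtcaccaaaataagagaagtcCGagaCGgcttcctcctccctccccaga
Btk promoter, chrX:134583091-134583390, minus strand: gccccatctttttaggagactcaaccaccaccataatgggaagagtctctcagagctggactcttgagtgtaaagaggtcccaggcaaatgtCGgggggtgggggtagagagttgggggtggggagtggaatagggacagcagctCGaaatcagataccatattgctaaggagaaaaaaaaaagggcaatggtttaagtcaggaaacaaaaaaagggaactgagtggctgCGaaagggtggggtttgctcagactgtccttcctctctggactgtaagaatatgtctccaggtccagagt
Src promoter, chr2:157424043-157424342, plus strand: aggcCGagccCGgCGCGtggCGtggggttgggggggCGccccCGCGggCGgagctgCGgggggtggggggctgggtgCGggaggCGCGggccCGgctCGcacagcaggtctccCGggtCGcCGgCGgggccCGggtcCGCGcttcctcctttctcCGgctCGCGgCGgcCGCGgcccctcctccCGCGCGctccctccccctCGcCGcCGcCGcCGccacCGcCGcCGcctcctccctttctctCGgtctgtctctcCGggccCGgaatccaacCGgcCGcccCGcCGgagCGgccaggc
Yes1 promoter, chr5:32610921-32611220, plus strand: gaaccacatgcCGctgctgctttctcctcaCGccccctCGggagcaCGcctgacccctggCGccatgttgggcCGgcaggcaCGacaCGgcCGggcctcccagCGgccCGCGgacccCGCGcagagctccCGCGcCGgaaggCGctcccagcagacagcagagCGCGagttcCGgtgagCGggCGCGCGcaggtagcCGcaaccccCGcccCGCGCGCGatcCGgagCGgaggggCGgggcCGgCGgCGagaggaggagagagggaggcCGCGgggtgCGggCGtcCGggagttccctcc
Src held 47 CG pairs and Yes1 42, more than 98.6% and 97.0% of the 32851 windows of this length. Fgr held 11 CG pairs, more than 58.6% of windows, and Btk 3, more than 23.3%. Of the other members in the table, Fyn held 31 CG pairs, Plcg2 21, Csk 9 and 24 at its 2 start sites, and Syk 31 and 2. The median window held 7. The motif GGGCGG, the GC box bound by Sp1, was found on either strand in Src, Yes1, Plcg2, Fyn and the second Csk window, in none of Fgr, Btk and Syk, and in 35.7% of all windows. The motif GAGGAA, the core of sites of the myeloid factor PU.1, was found on either strand in Fgr, Btk, Src, both Csk windows and the second Syk window, and in 28.3% of all windows. The 2 motifs share no stretch by which one could count as the other.

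Between 18375898 and 23940156 read pairs were counted on genes per library, with 23240995 or more in every ApoE-/- library and 21664598 or fewer in every WT library. Apoe itself checked the labels, with 14.6 to 36.3 CPM (counts of read pairs scaled with TMM factors to a common library size) in ApoE-/- aortas and 536 to 857 CPM in WT aortas. Smooth muscle and endothelial markers were abundant in every library. The 6 smooth muscle markers summed to at least 4674 CPM and the 6 endothelial markers to at least 1456 CPM. ApoE-/- replicate 1 stood apart from the other ApoE-/- libraries. Its smooth muscle markers summed to 4674 CPM against 11840 to 19224 CPM in the other 3, and 11 macrophage markers to 574 CPM against 1077 to 2354 CPM. All 6 cardiac muscle markers were lower in every ApoE-/- library than in every WT library, as were 3.3% of all genes tested. The 6 markers summed to 19.8 to 116 CPM against 201 to 451 CPM. Mitochondrial genes took 2.84% to 5.16% of the pairs on genes in ApoE-/- and 5.52% to 6.92% in WT libraries, and 50.1% to 54.7% against 56.4% to 58.0% of all pairs lay on no gene, both without overlap. Fitted without mitochondrial genes, edgeR called 69 genes and 1 member, and the part of the pairs on no gene was not tested. Each result on the 9 genes is also given without ApoE-/- replicate 1 where the library changed it.

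Of the 9 genes, Fgr rose in ApoE-/- aortas, by 6.92-fold, and none of the other 8 passed the threshold in edgeR. Syk and Btk were measured at 2.09-fold and 2.44-fold of their WT levels without overlap between genotypes, and passed the threshold in DESeq2 but not in edgeR. Yes1 was the only member with a lower level in ApoE-/- aortas, 0.858-fold of WT. All 9 genes passed the filter on low counts. The edgeR quasi-likelihood test at an adjusted p under 0.05 called 1 of 9 members, and 0.464% of the 15077 genes tested in either direction (0.371% higher and 0.0929% lower). DESeq2 called 3 of 9 members, all higher, and 4.81% of all genes (3.12% higher and 1.69% lower). Without ApoE-/- replicate 1, edgeR called 4 of 9 members, Fgr, Syk, Btk and Plcg2, and 3.91% of all genes (2.75% higher and 1.16% lower). The genotypes did not overlap in CPM for 4 of 9 members, 3 higher and 1 lower in ApoE-/- aortas, as for 8.72% of all genes (5.42% higher and 3.3% lower). At an unadjusted p under 0.05 stood 6 members, and 11.4% of all genes. The fold change had a positive sign for 8 of 9 members and for 58.0% of all genes, and the members' signs were the same under the other 2 scalings.

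**Figure D1:**
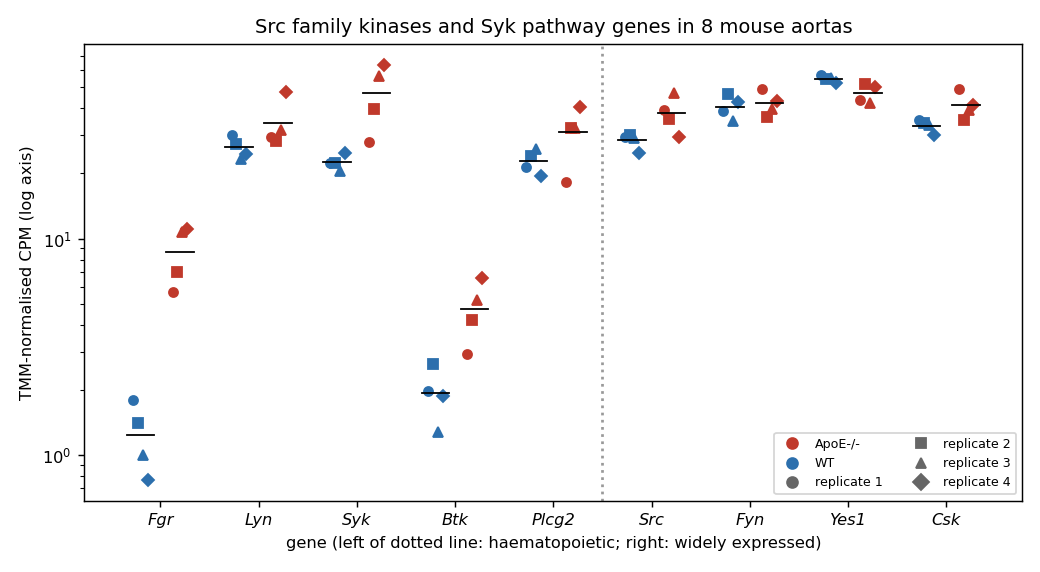
TMM-normalised CPM (log axis) of the 9 genes in each of the 8 libraries, with WT in blue on the left of each pair, ApoE-/- in red on the right, symbols for the replicate and a bar at the mean of 4 libraries. Fgr, Syk and Btk were higher in every ApoE-/- library than in every WT library, Yes1 was lower, and the other 5 genes overlapped.

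Fgr encodes a Src family kinase of myeloid cells. The 4 ApoE-/- libraries held 5.68, 7.04, 10.7 and 11.1 CPM of Fgr (replicates 1 to 4), from 140, 161, 246 and 255 read pairs. The 4 WT libraries held 1.79, 1.40, 0.997 and 0.765 CPM, from 39, 30, 18 and 16 read pairs. Every ApoE-/- library was far above every WT library, and the lowest of them, replicate 1, held 140 read pairs against 39 in the highest WT library. The log2 fold change was 2.79 ± 0.35 (SE, n = 4 per genotype; 95% interval 2.00 to 3.58), with an adjusted p of 0.0355 in edgeR. Leaving out single libraries kept the log2 fold change between 2.62 and 3.03, but moved the edgeR adjusted p from 0.00621 (without ApoE-/- replicate 1) to 0.147, and Fgr passed 0.05 in 1 of the 8 leave-outs. In DESeq2 it passed in 8 of 8, with adjusted p up to 5.84e-08.

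Syk encodes the kinase that binds phosphorylated ITAMs. Its level was 27.9, 39.8, 56.2 and 63.6 CPM in the ApoE-/- libraries and 22.4, 22.2, 20.4 and 24.8 CPM in the WT libraries. The WT libraries lay close together, the ApoE-/- libraries spread over a wider range, and replicate 1 was the nearest to WT. The log2 fold change was 1.06 ± 0.24 (SE; 95% interval 0.50 to 1.62), with an adjusted p of 0.103 in edgeR and 0.0041 in DESeq2. Without ApoE-/- replicate 1 it was 1.24, with an edgeR adjusted p of 0.00905, and DESeq2 called Syk in all 8 leave-outs.

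Btk encodes a Tec family kinase of B cells and myeloid cells and was a low-level transcript. The ApoE-/- libraries held 2.92, 4.2, 5.18 and 6.59 CPM and the WT libraries 1.97, 2.62, 1.27 and 1.87 CPM. The lowest ApoE-/- library exceeded the highest WT library by a small margin, 72 against 56 read pairs. The log2 fold change was 1.28 ± 0.32 (SE; 95% interval 0.56 to 2.01), with an adjusted p of 0.12 in edgeR and 0.0107 in DESeq2. Without ApoE-/- replicate 1 the edgeR adjusted p was 0.0306, and DESeq2 called Btk in 3 of 8 leave-outs.

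Plcg2, whose product cleaves a membrane lipid into the second messengers that raise calcium and activate protein kinase C, was at 18.3, 32.6, 32.5 and 40.5 CPM in ApoE-/- and at 21.4, 24.0, 26.0 and 19.4 CPM in WT libraries. ApoE-/- replicate 1 was below all 4 WT libraries, and the other 3 were above all of them. The log2 fold change was 0.45 ± 0.23 (SE), with an edgeR adjusted p of 0.548. Without ApoE-/- replicate 1 it was 0.63 ± 0.13 (SE), with an adjusted p of 0.0447 in edgeR and 0.00266 in DESeq2. Without ApoE-/- replicate 4 it was 0.29 (edgeR adjusted p = 0.611), and Plcg2 passed in 1 of the 8 fits that left out a library, in edgeR and in DESeq2 alike.

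Lyn, the Src family kinase that also turns on inhibitory receptors, was at 29.5, 28.3, 31.6 and 47.6 CPM in ApoE-/- and at 30.1, 27.5, 23.3 and 24.6 CPM in WT libraries. The genotypes overlapped, and only ApoE-/- replicate 4 stood clearly above the rest. The log2 fold change was 0.38 ± 0.18 (SE; 95% interval -0.04 to 0.80), with an edgeR adjusted p of 0.516 and 0.49 in DESeq2. It was 0.18 in edgeR and 0.17 in DESeq2 without ApoE-/- replicate 4 (adjusted p of 0.576 and 0.644).

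Among the widely expressed members, Src itself was at 39.1, 35.6, 47.3 and 29.3 CPM in ApoE-/- and at 29.5, 30.1, 29.1 and 24.9 CPM in WT libraries. Replicate 4 of the ApoE-/- libraries lay inside the WT range and the other 3 above it, and the log2 fold change was 0.41 ± 0.15 (SE; 95% interval 0.06 to 0.76), with an edgeR adjusted p of 0.324. Without that library DESeq2 called Src, with a log2 fold change of 0.51 and an adjusted p of 0.0363. Csk was at 49.0, 35.5, 39.4 and 41.6 CPM in ApoE-/- and at 35.5, 34.3, 33.4 and 29.9 CPM in WT libraries, and ApoE-/- replicate 2 was level with WT replicate 1. Its log2 fold change was 0.31 ± 0.12 (SE; 95% interval 0.04 to 0.59), with an edgeR adjusted p of 0.353.

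Fyn, which serves T cell receptors and adhesion sites, was at 49.1, 36.5, 39.9 and 43.1 CPM in ApoE-/- and at 38.8, 46.5, 34.9 and 42.6 CPM in WT libraries. The genotypes lay in the same range, and the log2 fold change was 0.05 ± 0.13 (SE; 95% interval -0.25 to 0.35), with an edgeR adjusted p of 0.939. Yes1, a close relative of Src made by most cells, was at 43.9, 52.0, 42.4 and 49.9 CPM in ApoE-/- and at 57.1, 54.5, 55.4 and 52.2 CPM in WT libraries. The highest ApoE-/- library and the lowest WT library were almost level. The log2 fold change was -0.22 ± 0.10 (SE; 95% interval -0.44 to -0.00083), and the p of 0.0493 became an adjusted p of 0.437 in edgeR and 0.275 in DESeq2.

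**Figure D2:**
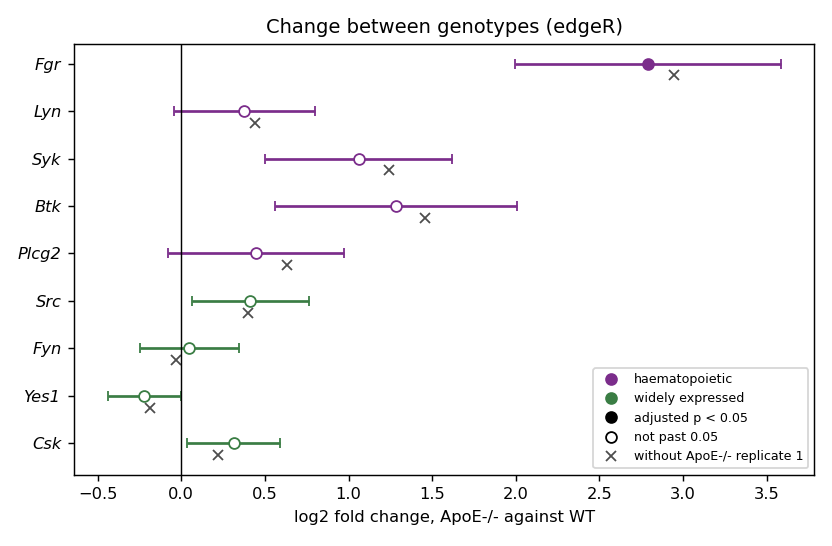
Log2 fold change of each member between ApoE-/- and WT aortas from edgeR, with the 95% interval as a bar, a filled point where the adjusted p was under 0.05 and a cross for the value without ApoE-/- replicate 1. Fgr was the member past 0.05 with all libraries, without replicate 1 Syk, Btk and Plcg2 were also past 0.05, and the 4 widely expressed members stayed between -0.22 and 0.41 with all libraries.

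As groups, the 5 haematopoietic members had a median log2 fold change of 1.06 and the 4 widely expressed members 0.18, where the median of all 15077 genes was 0.05. The medians of the 2 groups were 1.24 and 0.09 without ApoE-/- replicate 1. All 5 of the former and 3 of the latter had a positive sign. The summed CPM of the haematopoietic members was 84.4, 112, 136 and 169 in ApoE-/- and 77.6, 77.8, 72.0 and 71.5 in WT libraries, without overlap. The sum of the widely expressed members was 160 to 181 CPM in ApoE-/- and 150 to 165 CPM in WT libraries, with overlap. With Lyn and Syk counted as widely expressed, since other cells also make them, the median was 1.28 for the remaining 3 haematopoietic members and 0.35 for the 6 others.

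Of the listed markers of leukocytes and platelets that were tested, 1 passed the threshold in edgeR, the neutrophil marker Csf3r. All 11 macrophage markers had a positive fold change and 10 did not overlap (8.72% of all genes). In edgeR 0 passed (10 at an unadjusted p under 0.05) and in DESeq2 7 (4.81% of all genes). Without ApoE-/- replicate 1, edgeR called 7 of the 11 (3.91% of all genes). The sum of the 11 markers was 574, 1077, 1274 and 2354 CPM in ApoE-/- against 457 to 544 CPM in WT libraries. The ApoE-/- libraries thus had the same order in macrophage markers as in Fgr, Syk and Btk, lowest in replicate 1 and highest in replicate 4. This order was not particular to macrophage markers. Summed fibroblast markers (1898, 3441, 4434 and 4757 CPM, replicates 1 to 4) and endothelial markers (1456, 1686, 1748 and 2294 CPM) had it too. Neutrophil markers summed to 7.34 to 16.1 CPM in ApoE-/- and 1.99 to 3.12 CPM in WT libraries. Of these, Csf3r, the receptor of granulocyte colony-stimulating factor, rose (log2 fold change 1.97, edgeR adjusted p = 0.0379). S100a9, a calcium-binding protein abundant in neutrophils, had 23 to 83 read pairs in ApoE-/- against 8 to 10 in WT libraries (log2 fold change 2.25, edgeR adjusted p = 0.0696, DESeq2 0.00174). S100a9 passed the filter on low counts through the ApoE-/- libraries, since a WT library was under its CPM cutoff (0.445). Its partner S100a8 had 9 to 64 against 3 to 8 read pairs and was under the filter on low counts, and Ly6g and Mpo had 0 or 1 read pair in every library. B cell markers summed to 6.81 to 17.5 CPM in ApoE-/- and 4.08 to 6.55 CPM in WT libraries, with 0 of 5 tested past the threshold in edgeR (0.464% of all genes) or DESeq2 and 3 at an unadjusted edgeR p under 0.05 (11.4% of all genes). T cell markers were at 6.91 to 13.9 CPM against 4.93 to 8.52 CPM, mast cell markers at 27.2 to 90.5 CPM against 27.5 to 57.1 CPM and platelet markers at 17.0 to 50.8 CPM against 18.5 to 27.1 CPM, all with overlap. No marker of these lists was at 0 in all 8 libraries. In RNA from a whole vessel, more cells of a type and more RNA of a gene per cell cannot be told apart, and the part of cell content in these differences was not tested.

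Fgr was set beside a widely expressed kinase and beside macrophage markers of the same library, where sequencing depth cancels. The difference between Fgr and Src in log2 CPM was -2.77, -2.32, -2.13 and -1.40 in the ApoE-/- libraries and -3.98, -4.34, -4.74 and -4.87 in the WT libraries. The mean was -2.16 ± 0.57 (SD, n = 4) against -4.48 ± 0.40 (SD, n = 4), a difference of 2.33 with a two-sided exact permutation p of 0.0286, the smallest that 4 mice against 4 allow. The difference between Fgr and the mean of the 11 macrophage markers was -2.62, -2.97, -2.63 and -3.41 in ApoE-/- and -3.97, -4.13, -4.35 and -5.06 in WT libraries. Its mean was -2.91 ± 0.37 (SD, n = 4) against -4.38 ± 0.48 (SD, n = 4), a difference of 1.47 with the same exact permutation p of 0.0286. Each of the 4 ApoE-/- libraries was above every WT library in this difference. Adjusted over these 2 tests, the exact permutation p of both stayed at 0.0286. Fgr was known to be higher in these ApoE-/- libraries when the comparisons were chosen, so that neither p is independent evidence of its direction. Without any 1 library, the differences were 2.07 to 2.53 and 1.24 to 1.64.

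The mean of the macrophage markers was itself 1.25 higher in ApoE-/- libraries on the log2 scale, so that a gene at the same CPM in both genotypes stood at -1.25 relative to them. The median over all 15077 genes was -1.25, and 0.531% of genes were higher and 56.3% lower without overlap. Relative to macrophage markers, Btk differed by -0.02 and Syk by -0.26 between genotypes on the log2 scale, both with overlap. Lyn was at -0.90 and Plcg2 at -0.85, both above the median of all genes, and Yes1 at -1.48, without overlap between genotypes for these 3. Src, Fyn and Csk had differences of -0.86, -1.20 and -0.95, also above the median of all genes and with overlap. For each of them ApoE-/- replicate 1 lay within the range of the WT libraries. These 8 values follow from the fold changes of the members and of the markers, and were not tested.

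**Figure D3:**
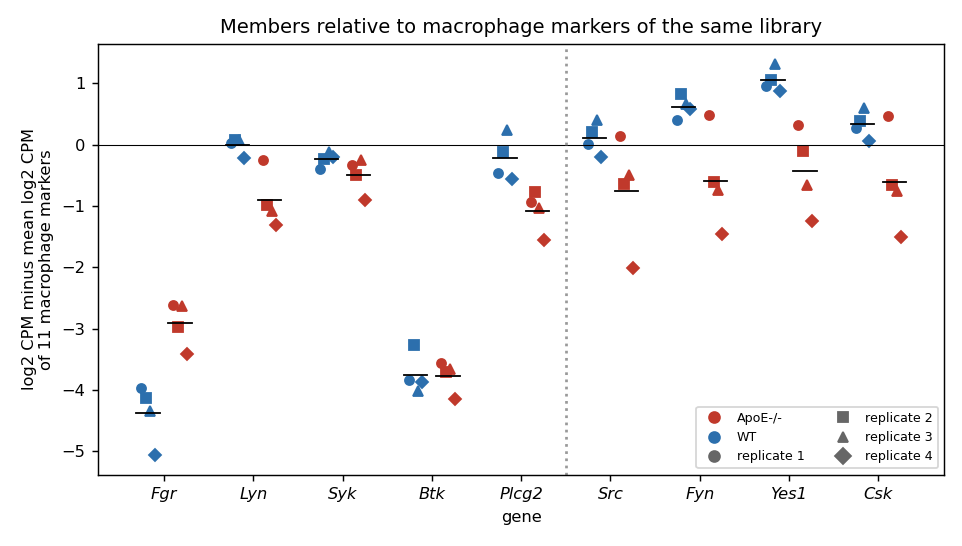
Log2 CPM of each member minus the mean log2 CPM of 11 macrophage markers in the same library, by genotype and replicate, with a bar at the mean of 4 libraries. Fgr was the member whose ApoE-/- libraries (-3.41 to -2.62) all lay above its WT libraries (-5.06 to -3.97). The macrophage mean was 1.25 higher in ApoE-/- libraries, and the median of all genes on this scale differed by -1.25.

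Levels of different genes can be compared per kilobase of exon. In WT aortas the order in mean CPM per kilobase was Fyn (9.33), Csk (8.91), Yes1 (7.30), Src (6.50), Lyn (6.47), Plcg2 (5.29), Syk (2.40), Btk (0.614) and Fgr (0.321). Fyn and Csk, Src and Lyn, Lyn and Plcg2, and Btk and Fgr overlapped between libraries, and the other neighbours in this order did not. In ApoE-/- aortas the order was Csk (11.1), Fyn (9.66), Src (8.66), Lyn (8.41), Plcg2 (7.20), Yes1 (6.27), Syk (5.01), Fgr (2.23) and Btk (1.5). There, all neighbours overlapped except Syk and Fgr. Yes1 ranked above Src, Lyn and Plcg2 in WT and below all 3 in ApoE-/- aortas, while Fgr stayed among the 2 least abundant members in both genotypes.

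The 5 Src family members were also summed, and their level was 35.2 ± 2.36 CPM per kilobase (SD, n = 4) in ApoE-/- and 29.9 ± 1.88 (SD, n = 4) in WT aortas, without overlap. Fgr made up 6.28% ± 1.66 (SD, n = 4) of this sum in ApoE-/- and 1.06% ± 0.339 (SD, n = 4) in WT aortas. Yes1 made up 17.9% ± 2.55 (SD, n = 4) and 24.5% ± 1.46 (SD, n = 4). For these 2 kinases the shares of the genotypes did not overlap. Lyn, at 23.7% ± 4.84 and 21.6% ± 1.47 (SD, n = 4), and Src, at 24.7% ± 5.07 and 21.7% ± 1.59 (SD, n = 4), overlapped between genotypes. Fyn was the largest part on average in both genotypes, at 27.4% ± 3.31 in ApoE-/- and 31.2% ± 2.98 (SD, n = 4) in WT aortas, with overlap. The shares are descriptions and were not tested.

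**Figure D4:**
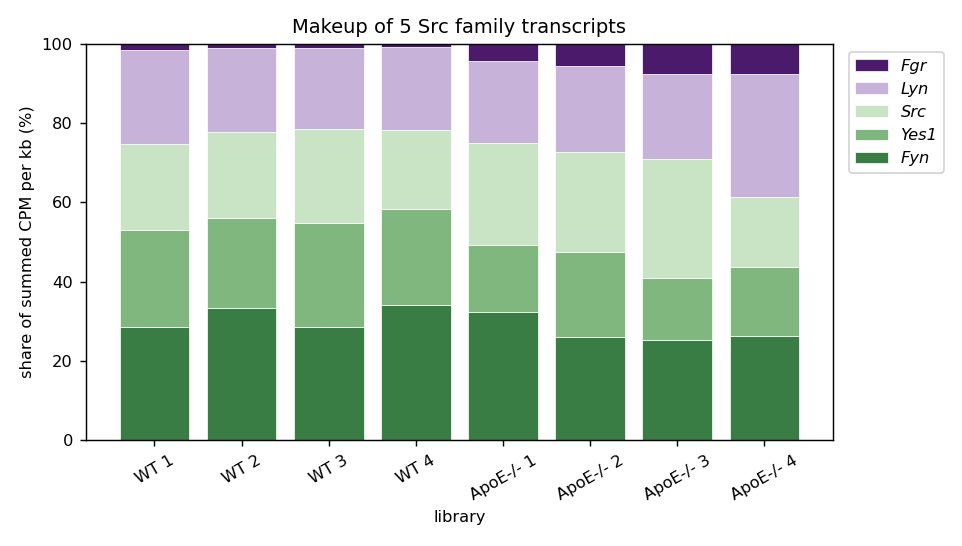
Share of each of the 5 Src family kinases in their summed CPM per kilobase (%), one bar per library, each bar adding to 100%. The dark band of Fgr was 4.23% to 7.67% in the ApoE-/- libraries and 0.692% to 1.49% in the WT libraries, and the band of Yes1 15.6% to 21.5% and 22.8% to 26.3%.

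Of the other kinases of the family, Blk, a kinase of B cells, had a log2 fold change of 1.58 (edgeR adjusted p = 0.117, DESeq2 0.0158), from 6 to 19 read pairs in WT and 26 to 48 in ApoE-/- libraries. Blk passed the filter through the ApoE-/- libraries, since a WT library was under its CPM cutoff (0.445), and DESeq2 called it in 4 of 8 leave-outs. Lck, the T cell kinase, and Frk, an epithelial one, had log2 fold changes of 0.38 and 0.26 with overlap. Of the relatives of Syk and Btk, 0 of 4 passed in edgeR (0.464% of all genes) or DESeq2 (4.81%) and 1 had an unadjusted edgeR p under 0.05 (11.4%). Zap70, which takes the place of Syk in T cells, had a log2 fold change of 1.11 (edgeR adjusted p = 0.311), Txk 0.57 and Tec 0.17, and Bmx, the Tec kinase of endothelium, 0.01. The 1 unadjusted p under 0.05 was that of Zap70. The WT libraries of Zap70 and of Txk alone would not have passed the filter.

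Among the genes that feed Syk, Trem2, Fcgr1, Fcgr4 and Clec4e passed the threshold in edgeR and were higher in ApoE-/- aortas. Of 20 ITAM-bearing chains and the receptors that use them, 19 were among the genes counted, all but Clec7a. The filter kept 15 of these, and all 15 had a positive sign, with a median log2 fold change of 2.03. In edgeR 4 of the 15 passed the threshold, all higher, in DESeq2 10, and 10 did not overlap between genotypes, where the shares of all genes were 0.464%, 4.81% and 8.72%. For 6 of the 15, Fcgr4 and Clec4e among them, a WT library was under the CPM cutoff of the filter (0.445), so that their WT libraries alone would not have passed it. Of the other 9, 2 passed in edgeR and 6 in DESeq2, 6 did not overlap and the median was 1.83. Trem2, a lipid-sensing receptor of macrophages, rose by a log2 value of 4.10 ± 0.62 (SE, edgeR adjusted p = 0.0434), from 1.29 ± 0.237 to 22.2 ± 15.8 CPM (SD, n = 4). The activating Fc receptors Fcgr4 and Fcgr1 rose by 3.37 ± 0.50 and 2.32 ± 0.28 (SE, edgeR adjusted p = 0.0396 and 0.0355), Fcgr4 from 6 to 14 read pairs in WT to 48 to 194 in ApoE-/- libraries. Clec4e, a lectin receptor, passed as well, with 26 to 45 read pairs in ApoE-/- and 1 to 2 in WT libraries. Clec4d had 20 to 188 read pairs against 3 to 6, and Trem1 11 to 20 against 1 to 5. Clec5a and the adaptor chain Tyrobp had log2 fold changes of 2.12 and 2.03, and these 4 did not pass in edgeR (adjusted p of 0.0652 to 0.0796) but did in DESeq2.

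Downstream of Syk, 25 of 25 listed adaptors and effectors were tested. Their median log2 fold change was 0.64, with 1 past the threshold in edgeR, 12 in DESeq2 and 12 without overlap, all of them higher in ApoE-/- aortas. Of all genes, 0.371%, 3.12% and 5.42% were higher by these measures. Vav1, a Rac exchange factor of blood cells, rose by 1.94 ± 0.30 (SE, edgeR adjusted p = 0.0462). Pik3ap1, an adaptor for phosphoinositide 3-kinase, differed by a log2 value of 1.65 ± 0.28 (SE) and had an adjusted p of 0.0526 in edgeR. Blnk, the scaffold between Syk and Plcg2, was at 1.40 (0.137), the GTPase Rac2 at 1.38 (0.103) and the adaptor Lat2 at 1.37 (0.104), with the edgeR adjusted p in parentheses. Plcg1, the widely expressed relative of Plcg2, was singled out after its value was seen: it was at 182 ± 15.2 CPM in ApoE-/- and 207 ± 15.8 CPM (SD, n = 4) in WT aortas, a log2 fold change of -0.18 (edgeR adjusted p = 0.647).

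Of 27 tested genes listed as negative regulators, 4 passed the threshold in edgeR, 16 in DESeq2, 17 did not overlap and 26 had a positive sign, beside 0.464%, 4.81%, 8.72% and 58.0% of all genes, and the median log2 fold change was 1.18. The inhibitory receptors Cd300lf, Cd72 and Lair1 rose by 3.98 ± 0.59, 2.57 ± 0.37 and 2.32 ± 0.34 (SE, edgeR adjusted p of 0.0396 for each). Cd300lf had 2 to 9 read pairs in WT and 58 to 166 in ApoE-/- libraries and passed the filter through the latter, so that its fold change is imprecise. Without it and Ubash3a, whose WT libraries alone would not have passed either, 3 of 25 regulators passed in edgeR and 15 in DESeq2. The fourth gene called was Ptprc, the phosphatase CD45, which also opens Src family kinases by removing the phosphate that Csk adds and marks all leukocytes, and which rose by 1.5 ± 0.20 (SE, edgeR adjusted p = 0.038), from 25.9 ± 3.14 to 73.1 ± 20.7 CPM (SD, n = 4). Cd22, Lilrb4a, Pirb and Cd300a, receptors that recruit phosphatases, had log2 fold changes of 2.65, 1.99, 1.86 and 1.53 (edgeR adjusted p of 0.0526 to 0.123). Without ApoE-/- replicate 1, edgeR called 13 of the 27 regulators, 10 of the 15 ITAM genes and 8 of the 25 adaptors, beside 3.91% of all genes. With any of the other 7 libraries left out, edgeR called 0 to 17 genes in all, with 0 or 1 among the regulators, 0 or 1 among the ITAM genes and 0 among the adaptors.

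Substrates and partners of Src at adhesion sites had a smaller median fold change. Of 14 tested, 0 passed in edgeR and 1 in DESeq2 (4.81% of all genes), and 4 had an unadjusted edgeR p under 0.05 (11.4% of all genes). Without overlap between genotypes, 2 were higher in ApoE-/- aortas (Cttn and Arhgap35) and 2 lower (Cav1 and Pxn), beside 5.42% and 3.3% of all genes. The median log2 fold change was 0.10, and 0.17 without ApoE-/- replicate 1. Arhgap35, a GTPase-activating substrate of Src, was at 263 ± 31.3 CPM in ApoE-/- and 205 ± 8.22 CPM (SD, n = 4) in WT aortas, a difference of 0.36 on the log2 scale (edgeR adjusted p = 0.253, DESeq2 0.0285). Ptk2b, the calcium-dependent relative of focal adhesion kinase, had a log2 fold change of 0.46 with overlap, and Cttn, an actin regulator, 0.22. Cav1, the coat protein of caveolae, was at 747 ± 153 CPM in ApoE-/- and 1014 ± 30.6 CPM (SD, n = 4) in WT aortas, with a log2 fold change of -0.44 (edgeR adjusted p = 0.396). The sum of the 6 endothelial markers was 1456 to 2294 CPM in ApoE-/- and 2053 to 2621 CPM in WT libraries. All 6 endothelial markers had a negative sign. Kdr, Emcn and Cdh5 had log2 fold changes of -0.79, -0.64 and -0.37 without overlap, past the threshold in DESeq2 (adjusted p of 0.00247, 0.0037 and 0.00303) but not in edgeR. The part of endothelial content in the differences of Cav1 and Yes1 was not tested.

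**Figure D5:**
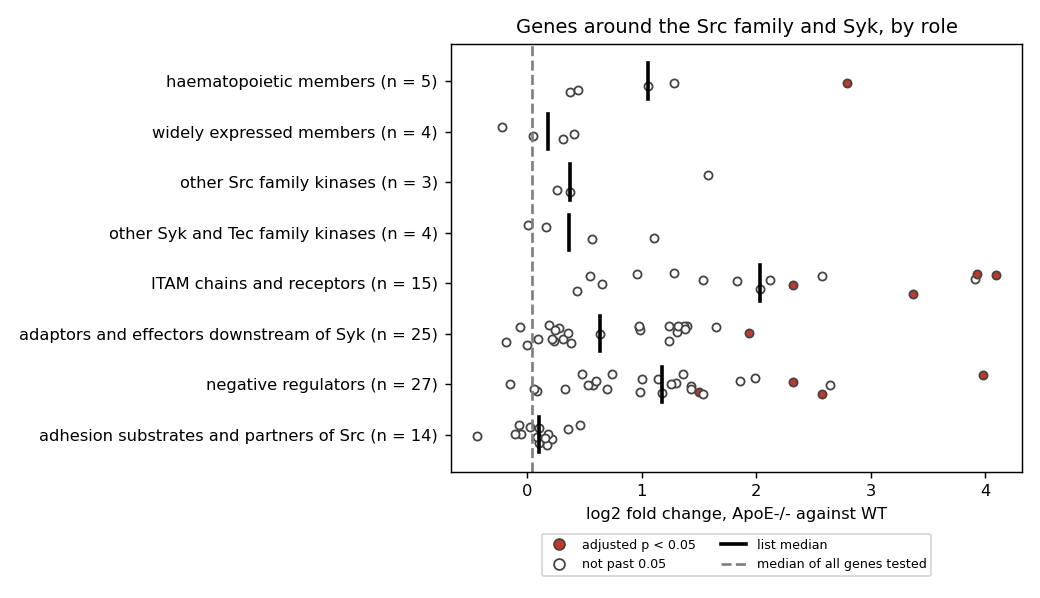
Log2 fold change between genotypes (edgeR) of each tested gene, in rows by role, with filled points for an adjusted p under 0.05, a black line at the median of the row and a dashed line at the median of all genes, 0.05. The medians ran from 2.03 for ITAM chains and receptors and 1.18 for negative regulators to 0.18 for the widely expressed members and 0.10 for the adhesion substrates.

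The genes whose profile over the 8 libraries lay nearest to that of a member were found from the mean absolute difference in centred log2 CPM. For Fgr they included the inhibitory receptor Cd72, at 0.252, and Stac2, at 0.254, where the median gene was at 1.37. For Syk they were the matrix metalloproteinase Mmp2, at 0.0908, the RNA editing enzyme Apobec1 and the lysosomal enzyme Gusb. Nearest to Btk were Pmaip1, Treml2 and Atp8b4, and nearest to Plcg2 were Cpq, Dnase1l1 and Manba. For Lyn they included Vsir and Rab32, and for Src they were Tagln2, Col16a1 and Acvr1b. Such distances describe these 8 libraries, which differ in genotype.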

How the data were processed

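Total RNA of whole aortas (4 ApoE-/- and 4 WT mice) was ribodepleted, made into 1 stranded library per mouse and read in pairs of 50 bases. For each library the authors deposited whole-number counts per gene, not normalized and with replicates kept apart. The submitters' processing notes name TopHat2, HTSeq, GRCm38 and mm10, without versions. The names of the deposited tables mark the counts as unique and stranded, and the other counting parameters are not given in the sources used here. Pairs not counted on a gene (64.4% to 67.7% in ApoE-/- and 69.8% to 72.1% in WT libraries) were left out of library sizes. Of the gene identifiers, 21817 matched GENCODE M21, which gave positions and exon lengths, and 42 did not. Start regions came from RefSeq (GRCm38.p6), where 8 of 9 members matched.

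Counts were analysed with edgeR 4.0.16 in R 4.3.3: filterByExpr kept 15077 genes, TMM factors scaled the libraries, and genotypes were compared by glmQLFit (robust) and glmQLFTest, two-sided, with Benjamini-Hochberg adjustment over all genes tested and a cutoff at 0.05. Standard errors (SE) came from dividing a log2 fold change by the root of its F value, and 95% intervals used the degrees of freedom of that test. CPM are TMM-normalised, and log2 CPM used a prior count of 2. Single values per library were compared by exact permutation over 70 assignments of mice to genotypes. Alternatives were DESeq2 1.42.0, limma-voom (limma 3.58.1), 2 other scalings, 2 other filters, a fit that was not robust, a block for replicate number, no mitochondrial genes, and each library left out. Intervals cover these 4 mice per genotype only, and no 2 libraries of a genotype were alike within sampling noise. DESeq2 leave-outs were chosen after seeing the data.

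The members and gene lists were chosen with earlier results of these data known. Named were the 9 members, Apoe, in each list the genes past the threshold and up to 4 others with the largest change, cell type markers, and for 6 members the 3 nearest genes. A few genes that these rules would name are not reported here.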

Additional observations from a re-analysis of the deposited data

How the results depend on the processing

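Fgr kept its direction under all alternatives, and its log2 fold change stayed between 2.61 and 3.03 with single libraries left out. Of 225 combinations of a member and an alternative, 199 stayed on their side of the threshold, 18 moved past the threshold and 8 lost it, all 8 for Fgr. Fyn, near 0, changed sign in 4 of these 199, to -0.03 and -0.02 in edgeR and to -0.04 and -0.03 in DESeq2, without ApoE-/- replicate 1 and without WT replicate 3. DESeq2 called 725 genes and 3 members, and limma-voom 29 genes and 1 member, against 70 genes and 1 member in edgeR, where the cause was not tested. The sample labels do not say whether same-numbered mice of the 2 genotypes were pairs. Their deviations from the genotype means had correlations of 0.0593, -0.448, 0.316 and 0.162, which do not settle it. With the replicate number as a block, edgeR called 2 genes and 0 members, and Fgr had a log2 fold change of 2.79 with an adjusted p of 0.14. Under an exact sign-flip over same-numbered mice, the differences of Fgr from Src (2.33) and from macrophage markers (1.47) had a p of 0.125, the smallest that this pairing allows. Leaving out 1 library gave 0 to 593 genes and 0 to 4 members in edgeR and 445 to 1562 genes and 2 to 4 members in DESeq2, the highest counts without ApoE-/- replicate 1. Fgr had an edgeR adjusted p of 0.0508 to 0.147 when any of the other 7 libraries was left out, with 3 libraries in that genotype. With Lyn and Syk counted as widely expressed, the median of that group moved from 0.18 to 0.35 and that of the haematopoietic group from 1.06 to 1.28. Depth limits Fgr most in WT aortas, where 16 to 39 read pairs were counted per library, and Clec4e, Trem1, Clec4d and Cd300lf have too few WT pairs for a precise fold change.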

Other observations

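Of the 9 members, 8 varied more between ApoE-/- mice than between WT mice, as did 85.1% of the 15077 genes tested, so that the count is near that of all genes. The coefficient of variation of CPM was 34.3% in ApoE-/- and 8.04% in WT aortas for Syk, 26.3% and 11.5% for Lyn, 29.8% and 12.8% for Plcg2, and 32.9% and 28.5% for Btk. Among the widely expressed members, Src had 19.8% and 8.41%, Csk 13.8% and 7.15%, Yes1 9.85% and 3.66%, and Fyn 12.8% and 12.2%. Fgr had the opposite order, with 31.0% in ApoE-/- and 36.4% in WT aortas, at 16 to 39 read pairs per WT library. The spread was not tested between genotypes.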
